A study of Mus musculus with 140 samples.

Results

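The transcripts described here encode 9 transcription factors of the striatal projection neuron, the GABAergic output neuron of the striatum: Foxp1, Foxp2, Bcl11b, Meis2, Rarb, Rxrg, Zfp503, Isl1 and Sp9. Members were chosen by name, and a cluster of any of the 70 immunoprecipitated (IP) libraries was given to a member when its midpoint fell inside the gene on the same strand in GENCODE vM21 (mm10). The 9 genes were 9 of 16501 genes with an enriched cluster in any library, and they held 5137 of 3579282 enriched clusters and 16969 of 13239113 listed ones. The study measured, by eCLIP, where TDP-43 was crosslinked to RNA and where an antibody to N6-methyladenosine (m6A) captured polyadenylated RNA, each against a sequenced input sample. R6/2 mice and non-transgenic (NT) mice, at 3 months of age and untreated, gave 8 IP libraries for each genotype, region (striatum or cortex) and antibody, 4 from males and 4 from females. In a second experiment C57Bl/6J males received 500 ug of an antisense oligonucleotide (ASO) targeting TDP-43, or PBS, into the cerebral ventricles at 5 weeks of age, and m6A eCLIP was run 2 weeks later (3 ASO and 3 PBS libraries). The titles and characteristics of these libraries name cortex, whereas their protocol text speaks of collecting striatum, so the region given here rests on the titles and characteristics. Their titles also give an age of 2 months. R6/2 mice carry a transgene for the first exon of human huntingtin with an expanded CAG repeat, beside the normal mouse alleles, so they model a fragment of the protein. The genes span 5.6 kb (Zfp503, chr14:21983959-21989601) to 597.4 kb (Foxp1, chr6:98925338-99522721). Whether both assays used the same mice was not given in the labels.

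Striatal projection neurons are born in the lateral ganglionic eminence, where retinoic acid and homeodomain factors set their fate, and keep several of these factors switched on in the adult. Foxp1, Foxp2, Bcl11b and Meis2 are broad regulators of this lineage, Isl1 is tied to the direct-pathway neurons that carry dopamine receptor Drd1 and Sp9 to the indirect-pathway neurons that carry Drd2. Most m6A in messenger RNA lies in long internal exons and near the stop codon within the DRACH sequence context, and TDP-43, a mainly nuclear RNA-binding protein that shuttles to the cytoplasm, favours GU-rich RNA.

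For each member 1 m6A site of the striatum is shown, the one found in all 16 libraries and holding a DRACH sequence that had the highest IP over input fold in NT mice, because these are the stretches that the m6A comparisons count most reliably. Each line gives 30 bases of the GRCm38 (mm10) genome on the gene's strand, written as DNA, and the capitals mark the DRACH match nearest to the summit of the site, the middle of the bases shared by the most libraries (D is A, G or T; R is A or G; H is A, C or T).
Foxp1: tctactttttgtTGACAaaagggatttgta
Foxp2: cactgaccttcaTAACCactccacaaccat
Bcl11b: cgcatacgtgggGGACActgcgtgcgtgcg
Meis2: tcctctggagaaAGACTccgagagttataa
Rarb: ctgtgtgattctGGACCtgtagtaatgtgt
Rxrg: atgcgtgattacTGACAggcaccagctgct
Zfp503: gacttcgccggtGAACAttggtatttattt
Isl1: ttactagaataaAAACAaacaaacaaacaa
Sp9: cgagacctataaAAACAgaccctttgtgtg
The Foxp1, Foxp2, Bcl11b and Meis2 stretches lie in 3' UTRs at chr6:98929822-98929851, chr6:15438059-15438088, chr12:107915369-107915398 and chr2:115863985-115864014. Those of Rarb and Rxrg lie in 5' UTRs at chr14:16818908-16818937 and chr1:167598463-167598492. Those of Zfp503, Isl1 and Sp9 lie in 3' UTRs at chr14:21984563-21984592, chr13:116299238-116299267 and chr2:73275089-73275118. The genes for Foxp2, Rxrg and Sp9 are on the plus strand and the others on the minus strand. The summit of the Bcl11b site was 27 bases past the end of the coding sequence, that of Meis2 218 bases and that of Isl1 226 bases.

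For TDP-43 in striatum the site in the most libraries is shown for the 4 members that could be tested there, with a TGTGT match in capitals where the 30 bases held one.
Foxp1: aggagacacttaggatgaattcagagagaa
Bcl11b: tggcgggcgcaggggctgcagctgcggctc
Meis2: catggggagcttTGTGTtggatggtcagca
Rxrg: gccgagagcgagcagagagtgaggcagaat
The Foxp1 stretch is in the 3' UTR at chr6:98927832-98927861. The other stretches are in coding sequence at chr12:107916308-107916337 (Bcl11b), chr2:115867292-115867321 (Meis2) and chr1:167630986-167631015 (Rxrg). Of these 4 stretches, the one of Meis2 held TGTGT.

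A cluster is an interval in which CLIPper found more IP reads than background, and it was called enriched here when its deposited -log10 p over input was 3 or more. The measure per gene is the number of enriched clusters after scaling libraries by median-ratio size factors, and because long genes hold more clusters, numbers were never compared between genes. It is a count of intervals, not of reads, and depends on how much of the RNA was present as well as on binding or methylation; in bulk tissue fewer cells of a type and less RNA per cell cannot be told apart. The libraries held 133211 to 260739 listed clusters. TDP-43 libraries of striatum were the sparsest, with 6769 to 24430 enriched clusters in R6/2 and 4929 to 24127 in NT, while the m6A libraries of striatum had 61831 to 86910 in R6/2 and 67512 to 76723 in NT. The intronic share of listed TDP-43 clusters in striatum was 18.8% to 47.4% (median 36.9%) in R6/2 and 16.1% to 25.7% (median 19.5%) in NT libraries.

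The region labels were checked first, in NT mice. All 9 members carried more enriched m6A clusters in striatum than in cortex (9 of 9 called by limma at adjusted p under 0.05, against 18.3% of 9036 genes, with 865 genes higher and 790 lower). A gene entered the fit when 8 of the 16 libraries each held 2 or more of its enriched clusters. The 8 striatal libraries alone carried Rxrg past this filter, although 2 cortical libraries also reached it, so its difference is in part set by the filter. The values of Rxrg here are a description, and the count of 9 includes it. Bcl11b, a zinc finger factor needed for projection neuron maturation, had 43.2 to 54.6 normalized clusters in striatum (median 46.4), against 24.7 to 33.4 in cortex (median 26.2), with no overlap (log2 fold 0.77, SE 0.07, adjusted p = 9.33e-08). Rarb, the retinoic acid receptor beta, had 7.91 to 14.6 in striatum (median 12.5) and 3.34 to 6.55 in cortex (median 4.13; log2 fold 1.39, SE 0.13, adjusted p = 6.64e-08). Zfp503, a zinc finger repressor of the lineage, had 11.9 to 18.2 in striatum (median 12.8) and 4.52 to 8.01 in cortex (median 6.46; log2 fold 1.03, SE 0.12, adjusted p = 7.65e-07). The striatal libraries lay wholly above the cortical ones for these 3 genes, as for 2.31% of all 9036 genes. The log2 fold was 1.73 for Rxrg, the retinoid X receptor gamma that pairs with Rarb (SE 0.30, adjusted p = 0.000193), 0.95 for the LIM-homeodomain gene Isl1 (SE 0.21, adjusted p = 0.00215) and 0.89 for the zinc finger gene Sp9 (SE 0.15, adjusted p = 0.000162). Foxp1, Meis2 and Foxp2 had the smallest differences, 0.52, 0.52 and 0.46. Of marker genes of other cells, 6 of 9 oligodendrocyte genes were higher in striatum (summed level 112 to 150 clusters in striatum and 81.1 to 112 in cortex) and 9 of 12 cortical excitatory genes lower (70.9 to 93.4 in striatum and 147 to 167 in cortex), and their part in the result was not tested. When abutting clusters were merged into 1 stretch, 3 members were called (Rxrg, Zfp503 and Sp9), and the differences of Foxp1 and Meis2 turned to -0.18 and -0.15.

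Enriched TDP-43 clusters of Bcl11b, Foxp1 and Meis2 were also more frequent in NT striatum than in NT cortex (all 3 called, against 52.1% of 3133 genes, where 283 genes were higher and 1350 lower and the median over all genes was -0.66). Bcl11b had 17 to 29.1 in striatum (median 22.4) and 2.62 to 8.45 in cortex (median 5.26; log2 fold 2.01, SE 0.20, adjusted p = 5.42e-07). Foxp1 had 8.01 to 16 in striatum (median 12.2) and 2.62 to 7.20 in cortex (median 4.32; log2 fold 1.36, SE 0.22, adjusted p = 8.48e-05). For both genes the striatal libraries lay wholly above the cortical ones, as for 3% of all genes tested. Meis2 overlapped at the edge, with 7.28 to 14.7 in striatum and 2.83 to 7.29 in cortex (log2 fold 1.23, SE 0.20, adjusted p = 0.000113). Rxrg had 2.49 to 7.28 normalized clusters in striatum (median 3.29), while 7 of 8 cortical libraries had none and the eighth had 0.72. It passed the filter through the striatal libraries alone and so had to differ, and its values are a description.

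**Figure D1:**
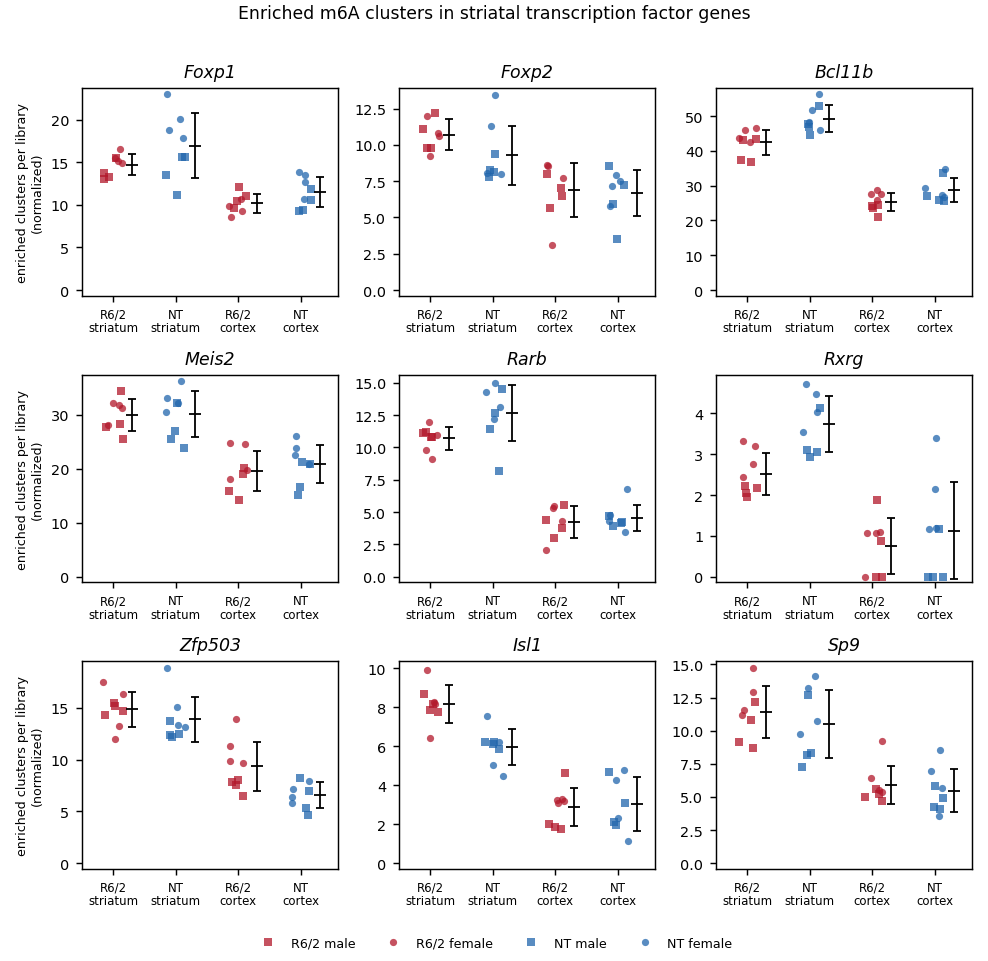
Enriched m6A clusters of each transcription factor gene in the 32 striatal and cortical libraries of R6/2 and NT mice. The y axis is the number of enriched clusters per library, normalized over all 32 libraries together (so values differ slightly from those of single comparisons), squares are males, circles are females, and the bar is the mean with SD (n = 8). Bcl11b, Rarb and Zfp503 separate NT striatum from NT cortex, and in striatum the R6/2 mean lies above the NT mean for Isl1 and below it for Rxrg, with libraries of the genotypes overlapping for both.

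In striatum, m6A clusters of the factors moved in both directions in R6/2 mice. Of the 9 members, 3 were called, Isl1 higher and Rxrg and Bcl11b lower, against 9.66% of 9486 genes, of which 362 were higher and 554 lower. The median log2 fold of the members was 0.00, and that of all genes 0.02. Isl1 specifies direct-pathway neurons in development, and bulk tissue does not show which adult cells held its RNA. The gene had 7, 8, 8 and 8 enriched clusters in the R6/2 males against 6 in each of the 4 NT males. R6/2 females had 9, 12, 10 and 8 against 8, 7, 5 and 5 in NT females. After scaling, these were 6.73 to 10.5 in R6/2 (median 8.54) and 4.71 to 7.93 in NT (median 6.40; log2 fold 0.43, SE 0.11, adjusted p = 0.0157). All 8 R6/2 libraries lay above the NT mean, and the groups overlapped.

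Rxrg, which forms heterodimers with retinoic acid receptors, held 2 enriched m6A clusters in each of the 4 R6/2 males against 3, 3, 3 and 4 in NT males, and 3, 4, 3 and 4 in R6/2 females against 5, 4, 4 and 5 in NT females. The scaled values were 2.04 to 3.49 in R6/2 (median 2.44) and 3.05 to 4.96 in NT (median 3.98; log2 fold -0.50, SE 0.14, adjusted p = 0.0215). The groups overlapped, with all 8 R6/2 libraries below the NT mean. Bcl11b held 38.3 to 48.8 in R6/2 (median 45.2) and 46.5 to 59.1 in NT (median 50.1; log2 fold -0.21, SE 0.06, adjusted p = 0.0279), again with all 8 R6/2 libraries below the NT mean.

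The other 6 factors were not called in striatal m6A. Rarb, the partner of Rxrg, had 9.59 to 12.6 in R6/2 (median 11.5) and 8.48 to 15.9 in NT (median 13.5; log2 fold -0.21, SE 0.11, adjusted p = 0.232). Foxp1, a forkhead repressor, had 13.6 to 17.5 in R6/2 (median 15.8) and 11.7 to 24.2 in NT (median 17.6; log2 fold -0.17, SE 0.09, adjusted p = 0.264). Its paralogue Foxp2 had 9.71 to 12.8 in R6/2 (median 11.2) and 8.14 to 14.1 in NT (median 8.53; log2 fold 0.21, SE 0.11, adjusted p = 0.252). The R6/2 values of all 3 genes lay within the NT range. All 8 R6/2 libraries lay below the NT mean for Rarb and for Foxp1, as for the called Rxrg and Bcl11b. For Foxp2, 7 of 8 lay above it. Meis2, a TALE homeodomain factor, differed by 0.00 (SE 0.08), Zfp503 by 0.10 (SE 0.09) and Sp9 by 0.13 (SE 0.11).

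Of the 3 striatal m6A calls, that of Isl1 held without the sex term, with the replicate number as a block and with the intronic share as covariate (adjusted p = 0.0246, 0.0182 and 0.0277). Rxrg lost its call under these settings (0.0589, 0.0532 and 0.0641), as did Bcl11b (0.066, 0.0631 and 0.0759). All 3 calls changed with how finely stretches were split, and that of Bcl11b was also lost without NT male 2, R6/2 male 2, R6/2 male 3, NT female 3 or R6/2 female 3 (highest adjusted p = 0.0601). With merged stretches none of the 3 was called, and for covered bases the log2 fold was 0.13 for Isl1 (adjusted p = 0.338), -0.21 for Rxrg (0.273) and -0.05 for Bcl11b (0.513). The bases covered by enriched clusters of Isl1 had a median of 586 in R6/2 (521 to 665) and 528 in NT (451 to 641). Those of Bcl11b had a median of 2137 in R6/2 and 2072 in NT, the opposite order to its cluster number. Those of Rxrg had a median of 240 in R6/2 and 298 in NT. Zfp503, not called by cluster number, was called by covered bases, with 908 to 1103 in R6/2 (median 997) and 762 to 948 in NT (median 838; log2 fold 0.20, adjusted p = 0.0111). Meis2, also not called by cluster number, covered 982 to 1267 bases in R6/2 (median 1090) and 910 to 993 in NT (median 939). Over all alternatives limma called Meis2 in 1 of 30 (adjusted p = 0.00351) and Rarb in 2 of 29 (lowest adjusted p = 0.036). Among markers of other cells in the same libraries, 2 of 7 tested astrocyte genes and 1 of 11 cortical excitatory genes fell, and no oligodendrocyte (9 tested), microglial (6), vascular (5) or interneuron (6) gene was called. The summed astrocyte level was 101 to 111 clusters in R6/2 and 111 to 128 in NT, and its part in the result was not tested.

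In cortex, Zfp503 was the called member for m6A (1 of 8 tested, against 6.24% of 8852 genes, 217 higher and 335 lower). It held 8, 7, 9 and 8 enriched clusters in R6/2 males against 4, 8, 7 and 5 in NT males, and 9, 9, 11 and 13 in R6/2 females against 7, 6, 5 and 6 in NT females. The scaled values were 6.22 to 13.3 in R6/2 (median 8.48) and 4.44 to 7.84 in NT (median 6.34; log2 fold 0.47, SE 0.13, adjusted p = 0.0251). Females separated and males overlapped. The call was lost without NT female 3, R6/2 female 3 or R6/2 female 4 (highest adjusted p = 0.0611). It was also lost with the replicate block (adjusted p = 0.0535), without the sex term (0.0631), with the intronic covariate (0.0826), with merged stretches (0.189) and with the thresholds of the methods (0.797), whereas the bases covered, 599 to 859 in R6/2 (median 729) and 426 to 711 in NT (median 556), kept it (log2 fold 0.31, adjusted p = 0.00843). Bcl11b had 20.1 to 27.6 in R6/2 cortex (median 24.1) and 24.2 to 33.0 in NT cortex (median 25.8; log2 fold -0.16, SE 0.07, adjusted p = 0.209). Isl1 averaged 2.77 ± 0.93 in R6/2 and 2.90 ± 1.31 in NT cortex (SD, n = 8 each; log2 fold 0.00, adjusted p = 0.997). The remaining members differed by -0.15 (Foxp1), -0.11 (Rarb), -0.08 (Meis2), 0.04 (Foxp2) and 0.12 (Sp9), none called. Rxrg was too sparse to test, with 0 to 1.80 in R6/2 and 0 to 3.23 in NT. Among markers of other cells, 2 of 12 cortical excitatory genes fell (summed level 133 to 152 clusters in R6/2 and 144 to 164 in NT), as did 1 of 7 tested astrocyte genes (87.1 to 104 in R6/2 and 97.7 to 115 in NT), and their part in the result was not tested.

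TDP-43 clusters could be tested in striatum for 4 members, of which Rxrg was called, lower in R6/2 (1 of 4, against 14.3% of 2226 genes, 141 higher and 177 lower, with a median over all genes of -0.05). Rxrg held 1, 2, 3 and 0 enriched clusters in R6/2 males against 2, 5, 3 and 3 in NT males, and 1, 0, 0 and 1 in R6/2 females against 3, 2, 3 and 3 in NT females. Scaled, it had 0 to 2.17 in R6/2 (median 0.832) and 1.75 to 5.01 in NT (median 2.36; log2 fold -1.57, SE 0.40, adjusted p = 0.0136). All 8 R6/2 libraries were below the NT mean and R6/2 male 3 lay inside the NT range. The filter was met by 2 R6/2 and all 8 NT libraries, so NT alone carried Rxrg past it and the call is in part set by the filter (adjusted p = 0.0226 with no filter). The listed clusters of Rxrg, enriched or not, were 6 to 12 per library in R6/2 (median 9) and 6 to 10 in NT (median 7.5).

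Foxp1 had 0 to 7.36 normalized TDP-43 clusters in R6/2 striatum (median 4.11) and 5.70 to 11.4 in NT striatum (median 8.48; log2 fold -1.21, SE 0.40, adjusted p = 0.054). Bcl11b had 7.53 to 15.8 in R6/2 (median 12.1) and 12.1 to 20 in NT (median 16; log2 fold -0.41, SE 0.16, adjusted p = 0.0919). For both genes all 8 R6/2 libraries lay below the NT mean, although neither passed the threshold. Meis2 had 1.97 to 11.1 in R6/2 (median 7.11) and 5.01 to 10.6 in NT (median 7.64; log2 fold -0.22, SE 0.26, adjusted p = 0.653), which overlapped throughout. These directions belong to enriched clusters: over all listed clusters the log2 fold was 0.23 for Foxp1 (adjusted p = 0.337), 0.10 for Bcl11b (0.612) and 0.38 for Meis2 (0.0207). The 4 R6/2 females and R6/2 male 4 had more than 30% of listed clusters in introns. With these 5 libraries left out, which keeps 3 R6/2 males, the log2 fold was -0.96 for Rxrg (adjusted p = 0.268) and -0.56 for Foxp1 (0.303). With the share of intronic clusters added to the fit it was -0.77 for Rxrg (0.333) and -0.52 for Foxp1 (0.54). Leaving out the 3 libraries under 10000 enriched clusters gave -1.20 for Rxrg (adjusted p = 0.028), -0.76 for Foxp1 (0.0176) and -0.48 for Bcl11b (0.0437). Leaving out NT male 1, R6/2 male 1, R6/2 male 3, R6/2 female 2 or R6/2 female 4 alone also brought Foxp1 past the threshold (lowest adjusted p = 0.0197). In these libraries the microglial and vascular markers had no enriched TDP-43 cluster, and the summed oligodendrocyte level was 47 to 100 in R6/2 and 43.9 to 97.7 in NT. Of the 3 cortical excitatory genes tested 1 rose (summed level 14.2 to 28.6 in R6/2 and 10 to 21 in NT), and its part in the result was not tested.

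**Figure D2:**
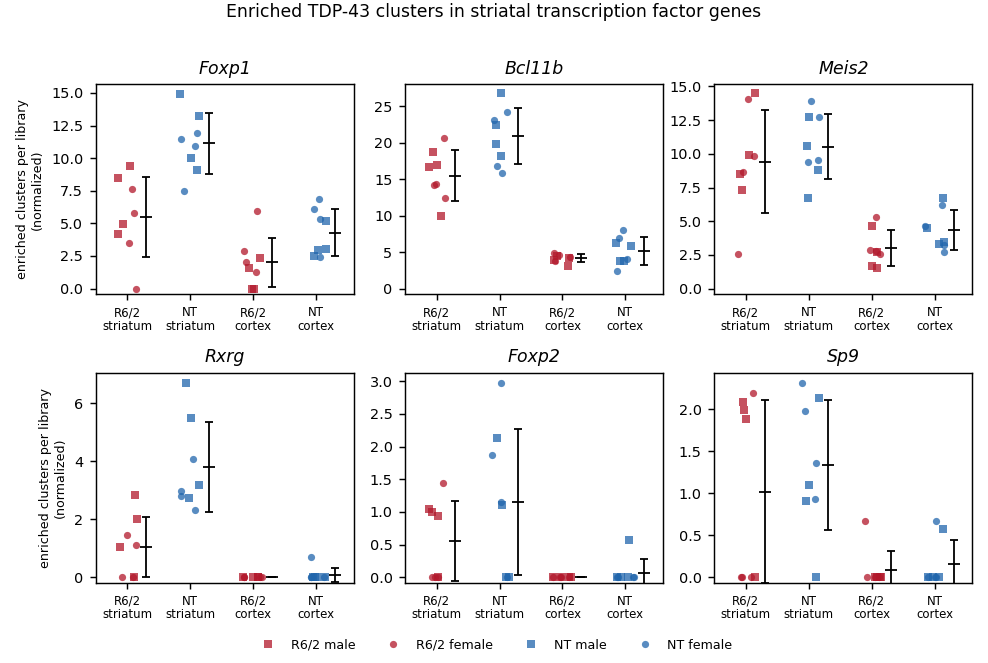
Enriched TDP-43 clusters of the 6 factor genes with such clusters in several libraries, in striatum and cortex of R6/2 and NT mice. The y axis is the number of enriched clusters per library, normalized over the 32 TDP-43 libraries; squares are males, circles are females, and the bar is the mean with SD (n = 8). R6/2 striatal libraries lie low for Rxrg and Foxp1, and NT cortical libraries lie below NT striatal ones for Rxrg, Bcl11b and Foxp1.

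The other 5 factors had few or no enriched TDP-43 clusters in striatum and were not tested. Foxp2 held 0 to 1 per library in R6/2 and 0 to 3 in NT, and Sp9 0 to 2 in both. Zfp503 had 1 enriched cluster of 105 listed over the 16 libraries and Isl1 had 0 of 141, with a highest -log10 p of 1.35. Rarb had 2 of 1392, both in R6/2 male 1. The listed clusters of Rarb, 88.6% of them intronic with a median log2 IP over input of -0.19, numbered 30 to 208 per library in R6/2 (median 138) and 38 to 110 in NT (median 51). By comparison, 40.1% of the listed TDP-43 clusters of Bcl11b in striatum were enriched, 23.7% of Rxrg, 14.8% of Sp9, 9.39% of Meis2, 4.62% of Foxp1 and 1.82% of Foxp2, against 9.09% over all genes. For m6A in striatum the share was 100% of 242 for Zfp503, 99.4% of 777 for Bcl11b and 27.3% of 722 for Rarb, against 41.3% over all genes.

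In cortex 0 of 3 tested members were called for TDP-43 by limma (against 7.47% of 3748 genes, 57 higher and 223 lower), and 1 of the 3, Foxp1, had an unadjusted p under 0.05. Foxp1 had 0 to 7.11 in R6/2 (median 2.37) and 3.33 to 8.38 in NT (median 4.94; log2 fold -1.32, SE 0.42, adjusted p = 0.062). With quantile normalization it was called (log2 fold -0.97, adjusted p = 0.0223), with a pseudocount of 1 also (-1.06, adjusted p = 0.0435), and without R6/2 male 1, NT female 3 or R6/2 female 3 (lowest adjusted p = 0.031). Bcl11b had 4.24 to 6.47 in R6/2 (median 5.72) and 3.33 to 9.92 in NT (median 6.09; log2 fold -0.12, adjusted p = 0.76), and Meis2 2.05 to 6.35 and 3.27 to 8.84 (log2 fold -0.43, adjusted p = 0.316), with overlapping groups for both.

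The R6/2 effect was compared directly between regions with an interaction term, and no member was called. For TDP-43 the difference, striatum minus cortex, was -0.01 for Foxp1, -0.23 for Bcl11b and 0.25 for Meis2 (2 of 2904 genes called, 0.0689%, and 309 at an unadjusted p under 0.05). For m6A it was 0.44 for Isl1 (SE 0.27, adjusted p = 0.752) and -0.37 for Zfp503 (SE 0.16, adjusted p = 0.53), so the Isl1 call in striatum and the Zfp503 call in cortex were not shown to differ from the other region (23 of 9084 genes called, 0.253%, and 717 at an unadjusted p under 0.05). The interaction with sex called no gene in limma (0% of the genes tested, and 190 to 566 at an unadjusted p under 0.05 in the 4 comparisons). For Foxp1 m6A the R6/2 effect, females minus males, was -0.35 in striatum (SE 0.17, adjusted p = 0.825) and -0.45 in cortex (SE 0.18, adjusted p = 0.984).

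**Figure D3:**
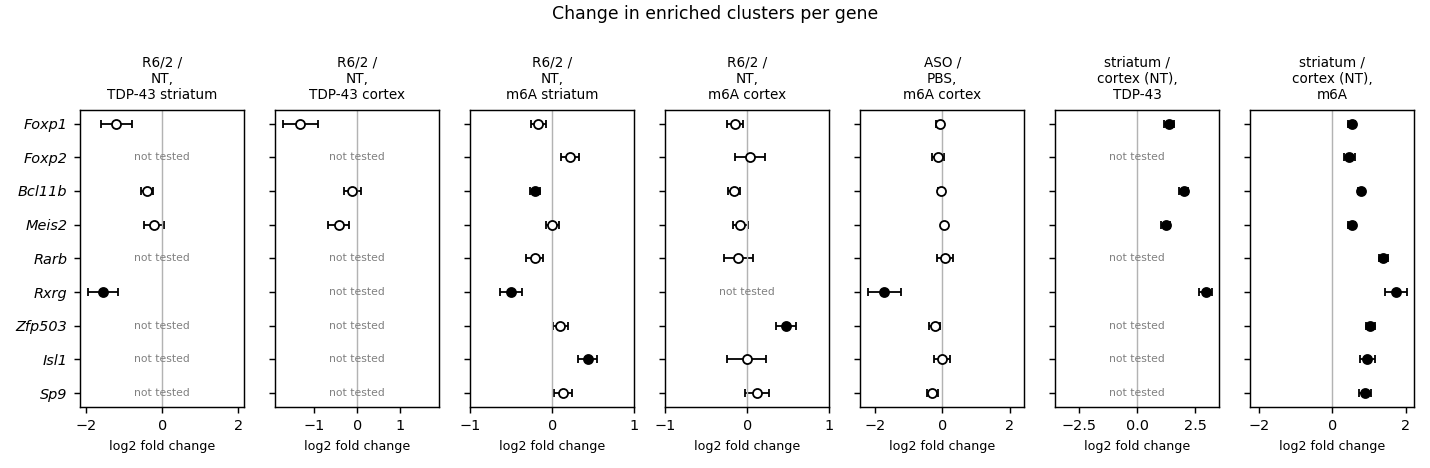
Log2 fold change of enriched clusters per gene for each factor in 7 comparisons, with the SE of the fit as the bar. Filled circles passed adjusted p under 0.05, open circles did not, genes with too few clusters are marked not tested, and the x axes differ in range between panels. The regional point of Rxrg for TDP-43, at 2.96, is that of a gene that passed the filter through striatal libraries alone, and R6/2 differences in m6A stay between -0.50 and 0.47.

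The members differed in where their clusters lay along the transcript. In striatal m6A, 3' UTRs held 89.1% of the enriched clusters of Isl1, 85.2% of Foxp2, 84.7% of Foxp1 and 75.7% of Meis2. Coding sequence held most of those of Sp9 (69.9%) and Zfp503 (65.3%), and Bcl11b was split between coding sequence (50.6%) and 3' UTR (48.3%). Of the retinoid receptors, Rxrg had 88.7% of its clusters in 5' UTRs, and Rarb was divided between 5' UTR (34.5%), coding sequence (34%) and 3' UTR (29.9%). TDP-43 clusters of striatum lay mostly in the 3' UTR of Foxp1 (72.2%) and the coding sequence of Meis2 (57.1%), those of Sp9 wholly in the 3' UTR, and those of Rxrg were divided equally between 5' UTR and coding sequence (50% each).

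Sites were then defined as runs of bases lying in an enriched cluster in 4 or more of the 16 libraries of an assay and region, regardless of genotype. In striatal m6A the members had 52 sites over 9233 bases, 31 of them in all 16 libraries: 16 in Bcl11b, 7 each in Meis2 and Zfp503, 5 each in Rarb and Sp9, 4 each in Foxp2 and Isl1 and 2 each in Foxp1 and Rxrg. DRACH stood within the 51 bases around the summit of 47 of these 52 sites (90.4%, against 79% of all striatal m6A sites), and GGACT within 4 (7.7%, against 15%); both were searched on the gene's strand, and GGACT is also a DRACH match. TDP-43 in striatum gave 39 sites, 13 in Bcl11b, 11 in Meis2, 10 in Foxp1, 3 in Rxrg and 1 each in Foxp2 and Sp9, of which 1, in the coding sequence of Bcl11b, was in all 16 libraries. TGTGT, searched on the gene's strand, stood in 4 of the 39 windows (10.3%, against 7.2% of all such sites). Of the 52 m6A sites, 11 overlapped a TDP-43 site of striatum (21.2%, against 8.8% of all m6A sites), 4 of them in Meis2, 3 in Bcl11b, 2 in Rxrg and 1 each in Foxp1 and Sp9. Of the 39 TDP-43 sites, 20 overlapped a TDP-43 site of cortex (51.3%, against 94.9% of all), and of the m6A sites 37 overlapped a cortical one (71.2%, against 84%). These shares are descriptions, since sites of 1 transcript are not independent.

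At TDP-43 sites of striatum, 28 of the 39 had an enriched cluster in more NT than R6/2 libraries, 5 in more R6/2 libraries and 6 in equal numbers, and all 10 Foxp1 sites were among the 28. The 28 are 71.8% of the member sites. Over all 18547 sites the share was 51.6% in more NT libraries, 23.2% in more R6/2 libraries and 25.2% in equal numbers, and R6/2 libraries held fewer enriched clusters (median 16412 in R6/2 and 19112.5 in NT). No site of any gene was called in an exact two-sided permutation test of genotype within sex (0% of 18547 sites, smallest possible p 0.000408). After adjustment over so many sites, a lone site at that smallest p cannot pass. Many sites would have to reach it together, so the absence of calls does not show that presence was unchanged. An unadjusted p under 0.05 was found at 6 member sites (15.4%), against 5.95% of all sites. The Rxrg 5' UTR site at chr1:167598425-167598461 was enriched in 0 of 8 R6/2 and 5 of 8 NT libraries (exact permutation p = 0.0306, adjusted p = 0.77), a second at chr1:167598627-167598735 in 3 and 8 (p = 0.0306), and the coding site shown above in 4 and 8 (p = 0.0714). Bcl11b had a 3' UTR site at chr12:107914742-107914825 in 1 R6/2 and 7 NT libraries (exact p = 0.0135). The Meis2 5' UTR site at chr2:116065303-116065434 went the other way, in 6 R6/2 libraries and 1 NT library (exact p = 0.0469). In cortex a Bcl11b coding site at chr12:107989623-107989671 was enriched in 0 R6/2 and 6 NT libraries (exact p = 0.0102), one of 2 member sites of 21 there with an unadjusted p under 0.05 (9.52%, against 4.24% of all sites), and no site was called (0% of 37155).

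For m6A, 1 of 52 striatal member sites had an unadjusted p under 0.05 for presence (1.92%, against 2.98% of all sites), and no site of any gene was called (0% of 40976). That site lay in the Isl1 3' UTR at chr13:116298612-116298672, with its summit 850 bases past the coding sequence, and was enriched in 7 of 8 R6/2 and 1 of 8 NT libraries (exact permutation p = 0.0135, adjusted p = 1). In cortex 0 of 42 member sites had an unadjusted exact p under 0.05, against 3.11% of all sites (0% of 37877 sites called). As for TDP-43, the smallest possible p left calls on presence nearly out of reach in both regions.

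The fold of IP over input at a site is set against the input reads of the same interval and so is less tied to RNA level than the number of clusters. No member site was called on it in limma. In striatal m6A the 44 testable member sites differed by -0.37 to 0.37 on the log2 scale (26 higher and 18 lower in R6/2, median 0.02, lowest adjusted p = 0.279), and 0.257% of 37762 sites were called. An unadjusted p under 0.05 was found at 9 of the 44, a larger share than the 9.63% of all sites. Sites of 1 transcript are not independent, so these shares are descriptions. The sites shown above had nearly equal mean log2 folds, as for Bcl11b (2.98 ± 0.20 in R6/2 and 3.06 ± 0.22 in NT), Rxrg (1.34 ± 0.13 and 1.33 ± 0.15) and Isl1 (2.75 ± 0.20 and 2.66 ± 0.16; SD, n = 8 each). The Isl1 3' UTR site enriched in 7 R6/2 libraries differed by 0.37 (SE 0.15, adjusted p = 0.468).

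Of the 37 testable TDP-43 sites of striatum, 10 had an unadjusted limma p under 0.05, a larger share than the 14.4% of all sites. The log2 difference ran from -0.92 to 1.27 (20 higher and 17 lower, median 0.02, lowest adjusted p = 0.163), and 0.695% of 17263 sites were called. The lowest was the Rxrg coding site, with a mean of 1.97 ± 0.55 in R6/2 and 3.13 ± 0.95 in NT (difference after centring each library on its median -0.92, SE 0.36, adjusted p = 0.218). Within Bcl11b the coding site in all libraries stood at 4.48 ± 0.73 in R6/2 and 5.45 ± 0.48 in NT (difference -0.73, SE 0.30, adjusted p = 0.235), while a 5' UTR site at chr12:108003419-108003465 had the highest difference (1.27, SE 0.44, adjusted p = 0.163). In cortex 0 of 19 TDP-43 member sites (0.0329% of 33394 called; 1 with an unadjusted p under 0.05, against 11.2% of all sites) and 0 of 37 m6A member sites (0.0713% of 35047 called; 0 with an unadjusted p under 0.05, against 9.96% of all sites) passed.

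**Figure D4:**
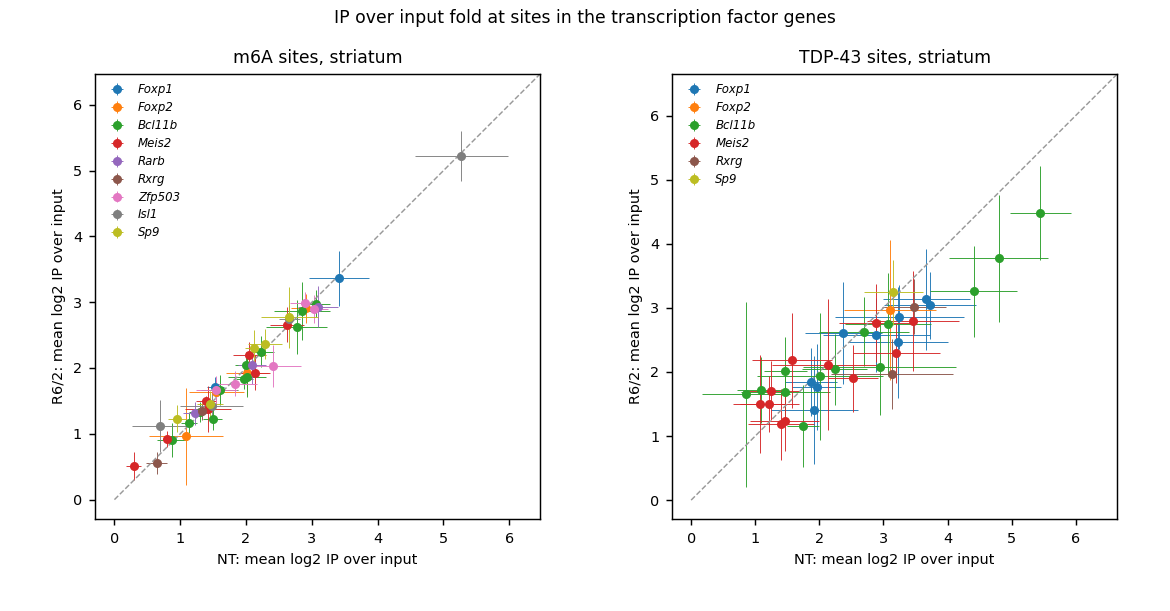
Mean log2 IP over input at sites in the factor genes in striatum, R6/2 on the y axis and NT on the x axis, for m6A (left) and TDP-43 (right). Each point is a site coloured by gene, bars are SD over the libraries that list it, and the dashed line marks equality. The m6A sites lie close to the line, while the TDP-43 bars are wide and the Rxrg coding site (1.97 in R6/2 and 3.13 in NT) lies below it. Folds are shown before centring of libraries, where the median TDP-43 difference over all sites was -0.19. After centring, the difference of the Rxrg site was -0.92 and was not called.

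In the ASO experiment, the enriched m6A clusters of Tardbp, the targeted gene, numbered 7, 8 and 9 in ASO libraries against 18, 17 and 25 in PBS libraries, which is a cluster number and not a measure of knockdown. Of the 9 factors, Rxrg was called (1 of 9, against 30.5% of 9904 genes, 1337 higher and 1681 lower). It had 0, 0 and 1 enriched clusters in ASO libraries against 2 in each PBS library. It passed the filter through the 3 PBS libraries alone and so had to differ, and with no filter it was not called (log2 fold -1.72, adjusted p = 0.057). These clusters lay in the 5' UTR that holds the Rxrg stretch shown above, where the site at chr1:167598418-167598627 was enriched in 1 ASO and 3 PBS libraries and its IP over input differed by -0.71 (SE 0.22, adjusted p = 0.413; 0 of 27 member sites called, against 0.00659% of 30369, and 1 with an unadjusted p under 0.05, against 9.68% of all sites). Without ASO library 1 or 2 the Rxrg call was lost (highest adjusted p = 0.11), and without any 1 PBS library the gene was too sparse to test. Foxp1 had 7.48, 8.28 and 8.4 normalized clusters in ASO libraries and 9.65, 7.90 and 8.14 in PBS libraries, and Bcl11b 18.2, 17.6 and 15.8 and 19.3, 17.8 and 16.3. Both overlapped. The largest uncalled differences were -0.29 for Sp9 (adjusted p = 0.237) and -0.23 for Zfp503 (0.324). Markers of other cells are given by counts, to be read against the 30.5% of all genes called. Of 7 tested interneuron genes 1 fell (summed level 38.9 to 43.8 clusters in ASO and 34.7 to 42.5 in PBS libraries). Of 7 tested microglial genes 3 rose (summed level 61 to 66.2 clusters in ASO and 53.4 to 57.2 in PBS libraries), and of 7 vascular genes 2 rose and 1 fell (46.2 to 47.6 in ASO and 39.5 to 42.5 in PBS). Of 11 tested cortical excitatory genes 3 rose (208 to 220 in ASO and 187 to 198 in PBS), of 7 tested astrocyte genes 1 rose and 3 fell (107 to 111 in ASO and 109 to 119 in PBS), and of 9 oligodendrocyte genes 3 fell (165 to 166 in ASO and 164 to 175 in PBS). Their part in the result was not tested. The listed intervals were the same in all 3 libraries of a treatment for 98.89% of them, so the spread within a treatment may be understated, and the effect of that on the calls was not tested.

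Genes related to the factors are described by counts, to be read against the 9.66% of all genes called for striatal m6A and the 14.3% for striatal TDP-43. A list of 30 genes carries out projection neuron functions, such as receptors and signalling enzymes. Of 29 tested, 23 fell and 0 rose for m6A in R6/2 striatum (median log2 fold -0.63, against 0.02 over all genes). For TDP-43, 21 of 26 fell and 0 rose (median -1.15, against -0.05). A gene can pass the filter through NT libraries alone, which was checked for the 9 factors only. Summed over the whole list, tested or not, striatal m6A was 307 to 335 clusters in R6/2 and 475 to 555 in NT. The TDP-43 sums were 157 to 201 in R6/2 and 294 to 471 in NT. Rasgrp2, an exchange factor for Rap GTPases, fell by 2.98 for m6A (SE 0.27, adjusted p = 1.15e-07) and Scn4b, a sodium channel beta subunit, fell by 1.49 (SE 0.10, adjusted p = 1.77e-09), beyond any of the 9 factors. For TDP-43, Pde10a, the striatal cyclic nucleotide phosphodiesterase, fell by 2.47 (SE 0.29, adjusted p = 6.04e-05). In R6/2 cortex, 13 of 22 tested genes of this list fell and 0 rose for m6A (median -0.435, against 6.24% of all genes called). For TDP-43 in cortex 9 of 18 fell and 0 rose (median -0.717, against 7.47% of all genes called). Of 14 paralogues and binding partners, 11 could be tested for striatal m6A, where Pbx3, a TALE partner of Meis proteins, rose (log2 fold 0.51, SE 0.16, adjusted p = 0.0428) and Pbx2 fell (-0.69, SE 0.15, adjusted p = 0.00333). Of 20 tested other factors of the developing striatum 2 rose, among them Sox11 (log2 fold 0.64, adjusted p = 0.0146), and 3 fell, among them the immediate-early gene Nr4a1 (-0.57, adjusted p = 0.0416). Of 12 coregulators of nuclear receptors, Ncor1, a corepressor of unliganded retinoid receptors, rose for m6A (log2 fold 0.32, SE 0.10, adjusted p = 0.0478) and for TDP-43 (0.65, SE 0.13, adjusted p = 0.00271). Of 11 genes of retinoid supply and binding, 1 could be tested in striatal m6A and was not called (log2 fold 0.33). Between regions in NT mice, 10 of 16 other striatal factors were higher and 1 lower in striatum for m6A, while 0 of 19 cortical projection neuron factors were higher and 14 lower (median -1.27), against 18.3% of all genes called.

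Over the 32 m6A libraries, the genes whose cluster numbers varied most like those of the factors were sought. Among 5671 genes compared by Pearson's r of log2 values, Bcl11b was near to Slc35d3 (0.94) and Drd1 (0.93), and Rarb to Rasd2 (0.95), Scube3 (0.92) and Syt6 (0.91). Foxp1 was nearest to Pde7b (0.87), Meis2 to Gjc3 (0.87), Zfp503 to Zfhx3 (0.88), Sp9 to Pou3f4 (0.85), Isl1 to Scube3 (0.81) and Foxp2 to P2ry1 (0.81). These values mix the difference between regions with the rest. Over the 16 striatal libraries alone r was 0.69 for Bcl11b and Slc35d3 and 0.78 for Foxp1 and Pde7b. It was -0.16 for Zfp503 and Zfhx3 and -0.74 for Isl1 and Scube3. The likeness over both regions thus did not carry over to striatum for Zfp503 and Zfhx3 or for Isl1 and Scube3. Libraries share region, genotype and depth, and the values are descriptions.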

How the data were processed

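TDP-43 and m6A eCLIP libraries were analysed from the deposited cluster lists; reads were not used here, and the 70 input samples have no list of their own. Per the labels and methods, the authors mapped to mm10 and called clusters with CLIPper, and each deposited row has a -log10 p (up to 400) and a log2 fold of IP over input; the base of the log was taken as 2 and is not stated in the sources used here. The versions of aligner and caller were not given in the sources used here. The methods' thresholds (p of 0.001, log fold of 3) were an alternative; the main one used p alone. Enriched clusters per gene were scaled by median ratios, taken as log2 of the value plus 0.5, and fitted over all genes with 2 or more in 50% of libraries by limma 3.58.1 (R 4.3.3) with sex as covariate, two-sided, with Benjamini-Hochberg adjustment; 0.05 was the threshold. The pseudocount understates changes of sparse genes. Site folds were fitted likewise after centring each library. Presence was tested by exact permutation (4900 labelings). Fits were tested on simulated data. Replicates are separate libraries, so p-values measure the spread between these samples only, and animals were not tied across libraries by the labels. No reads means that depth is known only as clusters per library, so no counting interval is given. Members, gene lists and tests were chosen with earlier results of these data known. Named genes were the 9 members, at most the 4 largest called changes per list and direction, and the 3 most similar genes per member. Alternatives covered thresholds, normalization, pseudocount, filters, counting unit, covariates, sex and left-out libraries. Some genes that these rules name are not reported here.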

Additional observations from a re-analysis of the deposited data

Results flagged for a closer look

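In 8 of 60 groups of 8 libraries examined (12 had no range), 1 library stood apart from the other 7, with a gap to its neighbour above Dixon's critical share of the group's range; chance gives about 5% of groups. Of these, 5 rest on 1 or 2 enriched TDP-43 clusters where the other 7 libraries had none: Foxp2 in NT cortex male 4 (0.661 normalized clusters), Rarb in R6/2 striatum male 1 (1.64), Zfp503 in the same R6/2 library (0.818), Rxrg in NT cortex female 2 (0.838) and Sp9 in R6/2 cortex female 3 (0.79). The other 3 are m6A values. Sp9 in R6/2 cortex female 3 had 8.89, and the next library 6.2. Rarb in NT cortex female 1 had 6.46, and the next 4.54. Zfp503 in NT striatum female 4 had 19.8, and the next 15.9. For none of these 8 was the comparison of R6/2 with NT called.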

How the results depend on the processing

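Of 972 alternatives for single members, 873 were counted as unchanged, 53 lost and 19 gained significance, 23 moved and 4 reversed. Unchanged means called both times in the same direction, or uncalled both times with a shift below the SD between replicates. Such uncalled values could change sign, so unchanged does not always mean the same direction. Moved means uncalled both times with a larger shift, and reversed a change of sign with a call in either fit. The cause was not tested. The number of members called was followed too. TDP-43 in striatum (1 called) gave 2 with all listed clusters (Foxp2 and Meis2; Meis2 reversed to 0.381, adjusted p = 0.0207), 2 with quantile or total normalization or a pseudocount of 1, 3 without libraries under 10000 enriched clusters, and 0 with the methods' thresholds, the intronic share as covariate, males or females alone, or without libraries of at least 30% intronic clusters. Leaving out 1 library gave 1 to 2. TDP-43 in cortex (0) gave 1 with quantile normalization or a pseudocount of 1, and 0 to 1 with 1 library left out. m6A in striatum (3) gave 0 with the methods' thresholds, merged stretches, males or females alone, 1 (Isl1) without the sex term, with the replicate block or the intronic covariate, and 2 to 4 with 1 library left out, where Bcl11b was lost in 5 of 16 cases (highest adjusted p = 0.0601). m6A in cortex (1) gave 0 with all listed clusters (Zfp503 not tested), the methods' thresholds, merged stretches, no sex term, the replicate block, the intronic covariate, males or females alone, and 0 to 1 with 1 library left out. Between regions, the 4 members called for TDP-43 include Rxrg, which passed the filter through striatal libraries alone and so had to differ. With R6/2 libraries in place of NT, 2 were called. For m6A (9, with Rxrg in part set by the filter) 2 were called with the methods' thresholds (Foxp1 and Zfp503). With merged stretches 3 were called, and Foxp1 (-0.179) and Meis2 (-0.152) reversed. Meis2 also reversed for covered bases (-0.067). The ASO comparison (1) gave 0 with the methods' thresholds, no filter, covered bases, merged stretches or the replicate block, and 0 to 1 with 1 library left out. With the methods' thresholds Rxrg (in all 3 R6/2 and ASO comparisons that called it) and Isl1 in striatal m6A were too sparse to test, as was Rxrg for ASO with merged stretches. Numbers of sites called stayed at 0 under the alternatives run, which for presence the smallest possible p made likely in advance. All listed clusters were not run for ASO because a treatment's libraries list the same intervals. Merged stretches, and leaving out libraries for ASO site folds, were chosen after seeing the data.

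Same-numbered libraries of opposite genotype correlated above 0.1 in 4 of 8 pairs for TDP-43 in striatum (r -0.173 to 0.461). This held in 1 of 8 pairs for TDP-43 in cortex (-0.452 to 0.112) and in 0 for m6A (-0.141 to 0.082). It also held in 0 pairs of ASO with PBS. The main fits did not take numbers as pairs. Same-numbered striatal and cortical libraries of a genotype were not correlated. Whether pairing them would change the region comparisons or the interaction between regions therefore cannot be judged from these values. Under the replicate block Isl1 stayed called (adjusted p = 0.0182), and Rxrg in striatal TDP-43 too (0.0259). NT libraries alone carried Rxrg past the filter there, so its call under the block is in part set by the filter too. Of listed striatal TDP-43 clusters 9.09% were enriched.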

Other observations

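Males and females were balanced between genotypes, and presence of member sites by sex was tabulated after the values were seen, with no test. In striatal m6A, 11 of the 52 member sites differed by 5 or more libraries between the 8 male and 8 female libraries (21.2%, and 7.74% of all 40976 sites). The count was 6 of 42 in cortical m6A (14.3%, and 6.05% of all sites), and for TDP-43 0 of 39 in striatum (0.776% of all sites) and 2 of 21 in cortex (9.52%, and 1.19% of all sites). Over all sites of striatal m6A, 71 (0.173%) were in every male and no female library and 154 (0.376%) in every female and no male library. In cortical m6A these were 44 and 51 sites. An intronic stretch of Isl1 at chr13:116309061-116309080 was enriched in all 8 male libraries of striatal m6A (4 R6/2 and 4 NT) and in 0 of 8 female libraries. Its mean log2 IP over input was 5.22 ± 0.38 in R6/2 and 5.27 ± 0.71 in NT (SD, n = 4 each). In cortical m6A the same stretch was enriched in 1 R6/2 and 3 NT males and in 0 R6/2 females and 1 NT female. A 3' UTR stretch of Bcl11b showed the opposite split in both regions: at chr12:107910897-107910972 in striatum and at chr12:107910899-107910963 in cortex it was enriched in all 8 female libraries (4 R6/2 and 4 NT) and in 0 of 8 male libraries. A 3' UTR stretch of Meis2 at chr2:115863381-115863410 was likewise enriched in all 8 female and 0 of 8 male libraries of striatum. The labels do not say whether male and female libraries were prepared together, so sex and preparation cannot be told apart.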
